A study of Mus musculus with 6 samples.

Results

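The 8 genes studied here belong to the STING pathway, which starts from DNA in the cytosol, and were followed through the cells of irradiated mouse hearts: Tmem173, Cgas, Tbk1, Ikbke, Irf3, Trex1, Samhd1 and Ifnb1. They were taken by gene symbol and were 8 of the 32285 genes in the deposited tables, and all 8 were found. The cells had been isolated from hearts as CD45+ cells, that is, carrying the surface protein shared by leukocytes, 28 days after irradiation of the heart with 12 Gy in 1 fraction, or after a sham procedure. Messenger RNA 3' ends were counted in single cells with unique molecular identifiers (UMIs), so that 1 UMI stands for 1 captured molecule. There were 2 libraries in each of 3 groups, all on C57Bl6J: mice labelled STING KO that received 12 Gy (named "Tmem mice" in the titles, with no allele given), wild-type mice that received 12 Gy, and wild-type mice that received the sham procedure. The age and number of the animals are not stated, nor whether libraries of 1 group came from different mice, so p-values reflect library-to-library spread that may be technical. A sham library of the STING KO label was not analysed here, so genotype without irradiation was not compared.

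In this pathway the enzyme cGAS, encoded by Cgas, binds double-stranded DNA outside the nucleus and makes the messenger cGAMP. cGAMP binds STING, the product of Tmem173, on the endoplasmic reticulum, and STING then recruits the kinase TBK1, or its relative IKKε encoded by Ikbke, which phosphorylates the transcription factor IRF3 and leads to transcription of Ifnb1, the gene of interferon beta. Trex1, a DNA exonuclease, and Samhd1, which breaks down deoxynucleotides and helps process stalled replication forks, keep such DNA from accumulating. In tissue macrophages this route and the interferon receptor that follows it are a known source of antiviral gene expression.

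After filtering 31279 cells remained, 3394 to 6014 in each of the 6 libraries. The median cell had 4409 to 6792 UMIs, with the 2 sham libraries lowest. Cells were named by marker genes, and 10 classes had at least 20 cells in every library. The largest was macrophage-like, with 10465 cells. Ptprc, which encodes CD45, was at 626 and 687 counts per 1000000 UMIs (CPM) in all kept cells of the libraries labelled STING KO, 583 and 524 CPM in irradiated wild type, and 564 and 620 CPM in sham wild type. It lay between 5.60 and 81.8 CPM in the endothelial-like and fibroblast-like classes, which passed through the sort. Any 2 libraries shared 6 to 38 cell barcodes, at most 0.460% of the smaller library. Levels below are CPM of the class named, which normalises for sequencing depth. Fold changes are log2 values ± SE from edgeR's quasi-likelihood fit over all 6 libraries, and a change was called at a Benjamini-Hochberg adjusted p under 0.05 over all genes tested. An exact permutation test of 2 libraries against 2 cannot give a two-sided p below 0.333.

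Tmem173 is the gene that the label says was targeted, and it lies on chromosome 18, 35733679 to 35740554, minus strand (GRCm38). With all kept cells pooled it had 40.4 and 43.1 CPM in libraries labelled STING KO, 45.5 and 41.8 CPM in irradiated wild type, and 39.9 and 32.9 CPM in sham wild type. The values of the 2 irradiated groups overlapped, and the log2 fold change between them was -0.20 ± 0.09 (edgeR, adjusted p = 0.364). The 3' tag counts only the end of the transcript, and with the allele not described this check does not show whether the protein was lost. Directions against wild type therefore rest on the label.

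Across classes Tmem173 was present in nearly every lineage. Monocyte-like cells had the highest mean, 54.5 ± 11.0 CPM, followed by dendritic cell-like cells at 51.8 ± 7.84 CPM and macrophage-like cells at 51.1 ± 4.88 CPM (SD, n = 6 libraries). Neighbours in this order overlapped in their library values from the first place to the last. Neutrophil-like cells were at 5.19 ± 1.06 CPM, between 3.67 and 6.88 CPM in the 6 libraries, and every library of the monocyte-like, dendritic cell-like and macrophage-like classes lay above 43.0 CPM. The gene was seen as at least 1 UMI in 33.7% of macrophage-like cells labelled STING KO, 29.1% in irradiated wild type and 22.1% in sham wild type, where cells had median depths of 8297, 6219 and 5064 UMIs. After each cell was thinned to 1000 UMIs, which left out 93, 107 and 77 shallower cells, the shares were 5.32%, 5.66% and 4.71%. The same thinning gave 0.328%, 0.287% and 0.445% in neutrophil-like cells of the 3 groups.

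Cgas, the DNA sensor, lies on chromosome 9, 78430526 to 78443237, minus strand. It had its highest mean, 36.0 ± 9.92 CPM, in the cycling class, which is defined by cell-cycle genes and mixes lineages. Macrophage-like cells were at 18.7 ± 3.38 CPM and monocyte-like cells at 17.7 ± 3.53 CPM, whereas B cell-like cells were at 2.84 ± 1.89 CPM and neutrophil-like cells at 2.48 ± 2.35 CPM. Cycling cells lay above macrophage-like cells in 6 of 6 libraries, although the ranges of the 2 classes overlapped between libraries.

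The kinases were distributed differently. Tbk1 (chromosome 10, 121546455 to 121586787, minus strand) ranged in its class means only between 17.7 ± 3.97 CPM in dendritic cell-like cells and 37.9 ± 7.56 CPM in endothelial-like cells, with every neighbouring pair overlapping. Ikbke (chromosome 1, 131254343 to 131279606, minus strand, with Gm28914 and Gm28913 on the other strand) was highest in T cell-like cells, at 29.5 ± 9.72 CPM, and stood above the next class, monocyte-like cells at 12.8 ± 4.75 CPM, in 6 of 6 libraries. NK cell-like cells were at 10.4 ± 4.09 CPM and macrophage-like cells at 8.22 ± 3.92 CPM. Dendritic cell-like, neutrophil-like and endothelial-like cells were all below 2 CPM in their means, at 1.73, 1.71 and 1.43 CPM, and these rest on 15, 14 and 26 UMIs in all.

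Irf3, the transcription factor, lies on chromosome 7, 44997648 to 45002848, plus strand, and overlaps Bcl2l12 on the other strand. Endothelial-like cells led with 55.5 ± 8.55 CPM, followed by B cell-like cells at 42.7 ± 6.28 CPM, and neutrophil-like cells were lowest at 13.3 ± 2.79 CPM. Samhd1 (chromosome 2, 157097533 to 157135265, minus strand) was abundant in monocyte-like cells, at 611 ± 62.3 CPM, and in neutrophil-like cells, at 505 ± 49.1 CPM. These 2 classes overlapped with each other, and no library of any other class reached the lowest neutrophil-like value of 452 CPM. Macrophage-like cells were at 232 ± 38.6 CPM. The lowest means were those of endothelial-like cells, 81.7 ± 18.2 CPM, and fibroblast-like cells, 60.1 ± 26.1 CPM. Neutrophil-like cells thus combined the second highest mean of Samhd1 with the lowest means of Tmem173, Cgas and Irf3. For Cgas they were not separated from B cell-like cells, which lay above them in only 3 of 6 libraries. Those 2 Cgas means rest on 24 UMIs in neutrophil-like and 31 UMIs in B cell-like cells.

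**Figure D1:**
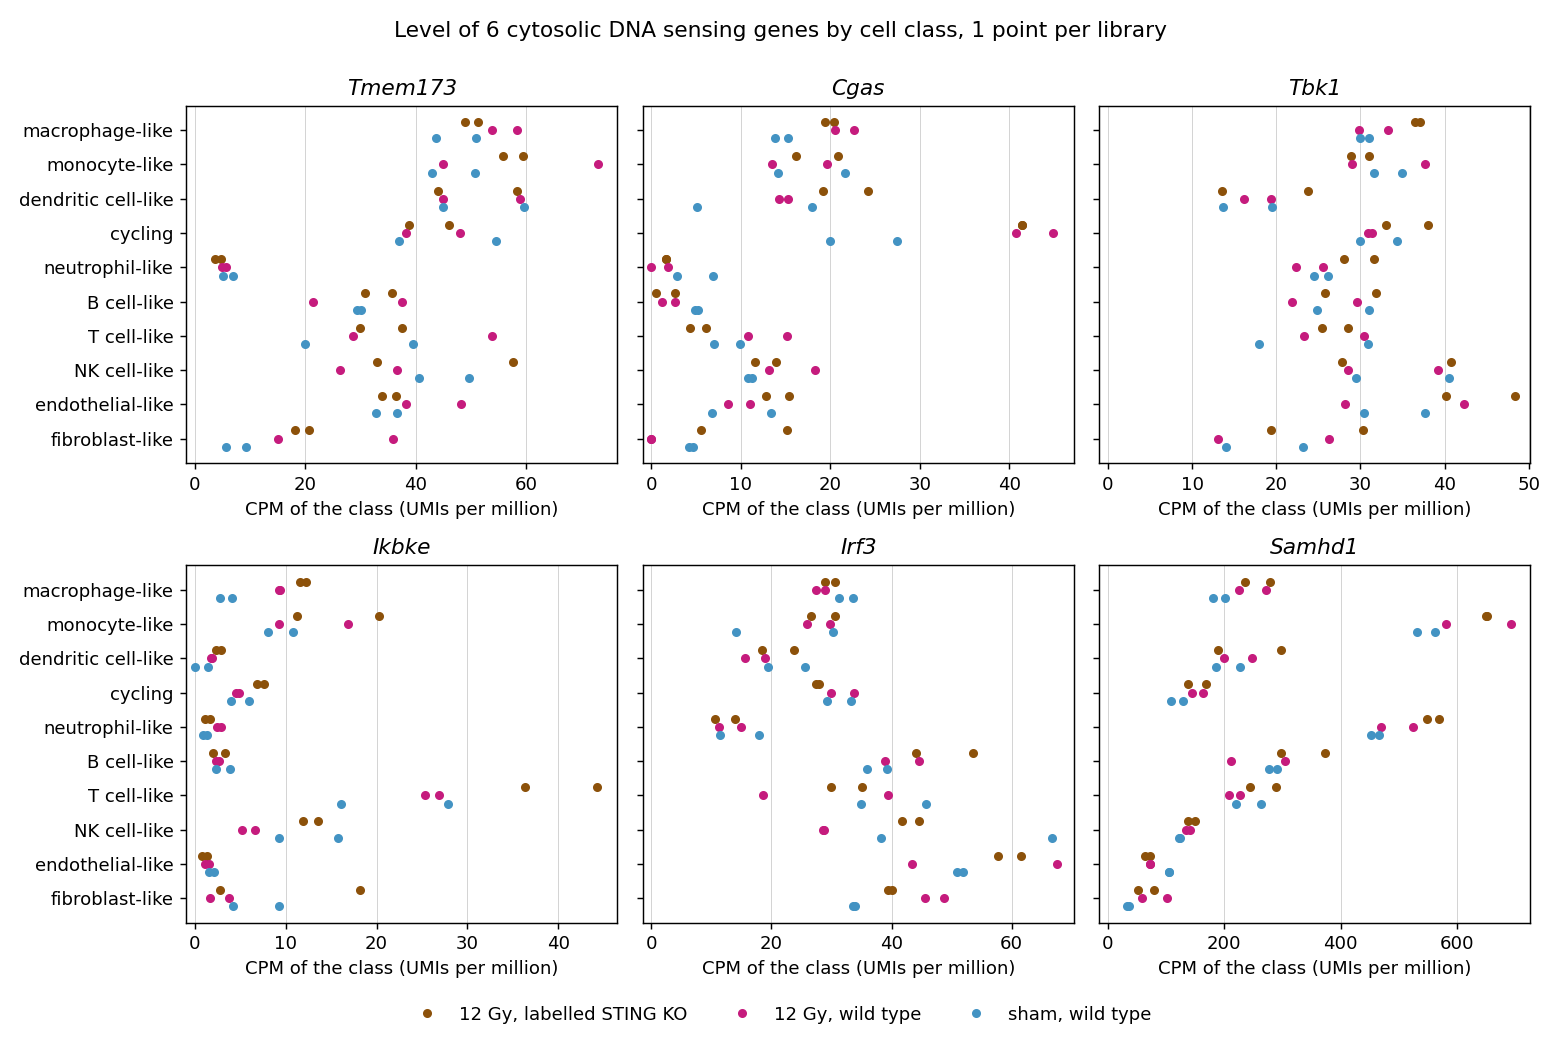
Level of 6 genes (x axis, CPM of the class, linear) in 10 cell classes (y axis), 1 point per library and coloured by group. Samhd1 separates monocyte-like and neutrophil-like cells, at 452 CPM or above, from the other classes, Ikbke is highest in T cell-like cells, and Tmem173 is between 3.67 and 6.88 CPM in neutrophil-like cells.

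Trex1 had 1 UMI in the 31279 kept cells. Its annotated span, chromosome 9, 109057933 to 109059734, lies wholly inside Atrip, a gene of the DNA damage response on the same strand that ends at the same base (109057933 to 109074124), so that reads from the 2 genes' 3' end cannot be told apart. Atrip had its highest class mean in fibroblast-like cells, at 7.61 ± 2.95 CPM, and was at 5.56 ± 0.338 CPM in macrophage-like cells and 0.293 ± 0.418 CPM in neutrophil-like cells. No level of Trex1 could be read from these counts, and it was not tested.

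The question of the radiation comparison, what 12 Gy changed in wild-type hearts, was asked first in macrophage-like cells. There Ikbke, Cgas and Ifnb1 rose in irradiated wild type over sham wild type, while Tmem173, Tbk1, Irf3 and Samhd1 did not pass the test. Of 12396 genes tested in this class, 6.48% changed and 3.65% rose. Trex1 did not reach the test, and Ifnb1 passed the filter on low counts through the irradiated wild-type libraries alone, so a large fitted fold was bound to follow.

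Ikbke had 9.41 and 9.27 CPM in irradiated wild-type macrophage-like cells, against 2.79 and 4.05 CPM in sham wild type. The groups did not overlap, and the log2 fold change was 1.44 ± 0.20 (edgeR, adjusted p = 0.00812). These levels rest on 88 and 110 UMIs in irradiated wild type and on 27 and 46 UMIs in sham wild type. At 1000 UMIs per cell, 0.704% of irradiated wild-type and 0.164% of sham wild-type macrophage-like cells had an Ikbke UMI, next to 0.143% and 0.148% of neutrophil-like cells. The call was kept when any 1 library was left out, with log2 fold changes from 1.20 to 1.77. It was lost with at most 5% instead of 10% of mitochondrial UMIs allowed per cell, which kept 26.5% and 15.2% of the irradiated wild-type and 18.6% and 13.8% of the sham macrophage-like cells. Under that limit, chosen with the same cell names after the data had been seen, the levels were 8.47 and 13.2 CPM in irradiated wild type and 5.66 and 6.72 CPM in sham wild type (0.81 on the log2 scale, adjusted p = 0.456).

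Cgas had 22.7 and 20.5 CPM in irradiated wild-type macrophage-like cells, against 13.9 and 15.3 CPM in sham wild type. The log2 fold change was 0.57 ± 0.12 (edgeR, adjusted p = 0.0282). This call was less stable than that of Ikbke. With at most 5% of mitochondrial UMIs allowed per cell and the same cell names, it was lost and the groups overlapped. The levels were then 27.2 and 15.3 CPM in irradiated wild type and 15.1 and 16.8 CPM in sham wild type. Without the macrophage-like cluster led by the interferon-induced genes Ifit3 and Ifit2, which held 15% and 10.1% of irradiated wild-type and 1.60% and 1.41% of sham macrophage-like cells, the log2 fold change was 0.40 (adjusted p = 0.156). It was also lost without irradiated wild-type replicate 1, irradiated wild-type replicate 2, sham replicate 1 or STING KO-labelled replicate 1, at adjusted p between 0.0523 and 0.133.

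Ifnb1 had 17 and 52 UMIs (1.82 and 4.38 CPM) in irradiated wild-type macrophage-like cells, against 1 UMI in each sham library (0.103 and 0.0881 CPM). The pooled rate was 34.2 times the sham rate, with an exact 95% interval of 9.11 to 288 that covers counting error only. The fitted log2 fold change was 4.93 ± 0.75 (edgeR, adjusted p = 0.0106). Its size depends on the prior count that the fit adds to a near-empty group. The call was lost without sham replicate 1 (adjusted p = 0.0621) and without sham replicate 2 (0.0526). Without the 1 macrophage-like cell with the most Ifnb1 UMIs in each library, 8 and 30 UMIs were left in irradiated wild type and 0 in both sham libraries, too few for the test.

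Among the members that did not pass, Samhd1 had 272 and 226 CPM in irradiated wild type and 202 and 180 CPM in sham wild type, with no overlap and a log2 fold change of 0.40 ± 0.12 (edgeR, adjusted p = 0.0819). Its call turned with the method, at an adjusted p of 0.0353 with DESeq2. Tmem173 had 58.3 and 53.8 CPM in irradiated wild type and 50.9 and 43.6 CPM in sham wild type (0.26 ± 0.09, adjusted p = 0.143). Irf3 had 27.5 and 28.9 CPM in irradiated wild type and 33.5 and 31.2 CPM in sham wild type (-0.18 ± 0.09, adjusted p = 0.248). Tbk1 had 33.3 and 29.8 CPM in irradiated wild type and 31.0 and 29.96 CPM in sham wild type, and its groups overlapped (0.06 ± 0.09, adjusted p = 0.724).

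**Figure D2:**
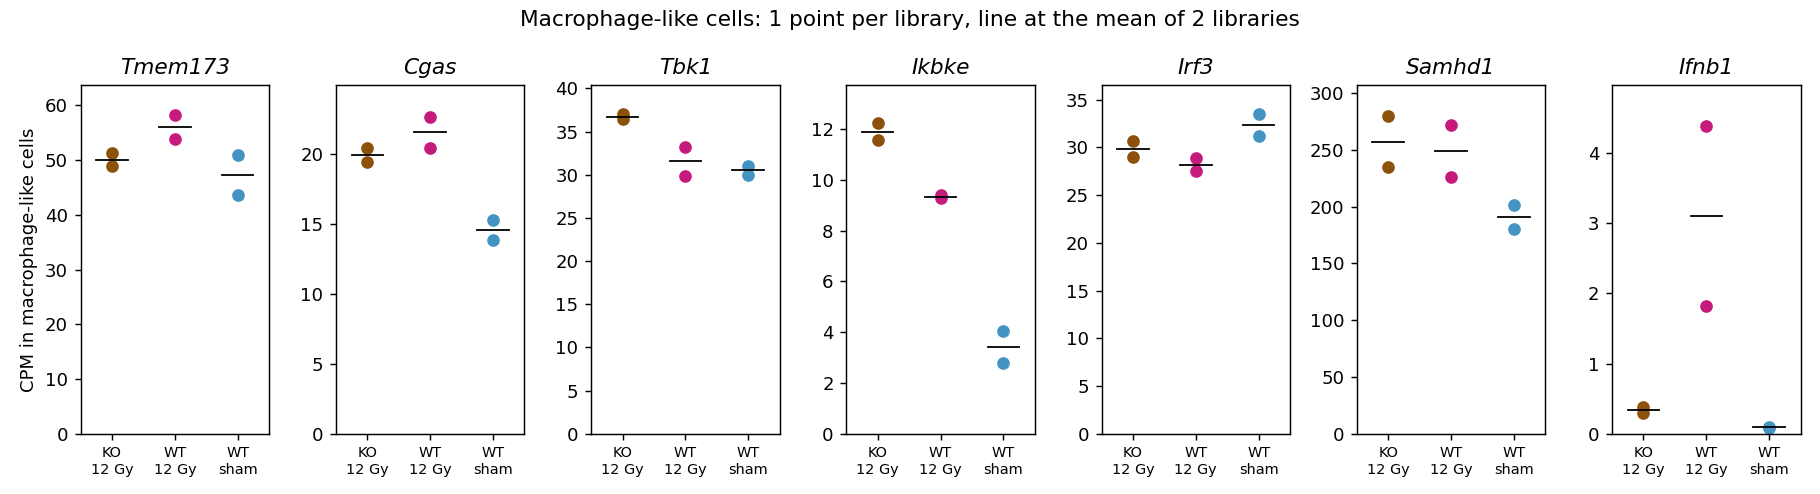
Level of 7 genes in macrophage-like cells (y axis, CPM, linear and starting at 0), 1 point per library with a line at the mean of 2 libraries, in groups given 12 Gy and labelled STING KO (KO), given 12 Gy and wild type (WT), and sham wild type. Both irradiated groups lie above sham wild type for Ikbke, at 9.27 CPM or more against 4.05 CPM or less, whereas Ifnb1 is highest in irradiated wild type, at 1.82 and 4.38 CPM.

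Markers of other cell types differed between groups in this class as well. The 8 monocyte markers, none of them at 0, summed to 775 and 1218 CPM in macrophage-like cells labelled STING KO, 764 and 824 CPM in irradiated wild type, and 229 and 553 CPM in sham wild type. The 6 T cell markers, the class highest in Ikbke, summed to 3.87 and 8.66 CPM, 6.42 and 15.1 CPM, and 3.93 and 8.20 CPM in the same order of groups, with none at 0, and these groups overlapped. The 6 cardiomyocyte markers, with none at 0, summed to 128 and 132 CPM in libraries labelled STING KO, 160 and 146 CPM in irradiated wild type, and 186 and 192 CPM in sham wild type, without overlap. The 7 neutrophil markers, with none at 0, summed to 270 and 361 CPM, 164 and 323 CPM, and 259 and 976 CPM in that order, and overlapped. The sums of 5 B cell, 7 endothelial and 6 fibroblast markers ran from 37.6 to 78.5 CPM, 54.4 to 112 CPM and 154 to 192 CPM over the 6 libraries, with 1 endothelial marker at 0 in replicate 1 of both wild-type groups and 1 fibroblast marker at 0 in irradiated wild-type replicate 1. Their part in the results was not tested. Fewer cells of a kind and less RNA per cell cannot be told apart in sums over a class.

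The genotype comparison asked whether these levels differed with the STING KO label among irradiated mice. In macrophage-like cells Ifnb1 fell in the libraries labelled STING KO, and it was the member called in this comparison, in which 1.86% of 12396 genes changed and 1.19% fell. Since the gene entered the test through the irradiated wild-type libraries, where it is high, the direction and size of this call were favoured by the filter and are given as a description. Ifnb1 had 6 and 5 UMIs (0.375 and 0.299 CPM) in macrophage-like cells labelled STING KO, against 17 and 52 UMIs (1.82 and 4.38 CPM) in irradiated wild type. The pooled rate was 0.103 times that of irradiated wild type, with an exact 95% interval of 0.0493 to 0.196 for counting error only, and the fitted log2 fold change was -3.31 ± 0.53 (edgeR, adjusted p = 0.0256). The call was lost without STING KO-labelled replicate 1 (adjusted p = 0.165), STING KO-labelled replicate 2 (0.122) or irradiated wild-type replicate 2 (0.143, with a log2 fold change of -2.51), and DESeq2 gave it no adjusted p.

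The other members tested did not pass. Tmem173 itself had 51.2 and 49.0 CPM in macrophage-like cells labelled STING KO and 58.3 and 53.8 CPM in irradiated wild type (-0.28 ± 0.09, adjusted p = 0.157). Cgas had 19.4 and 20.4 CPM in the libraries labelled STING KO and 22.7 and 20.5 CPM in irradiated wild type (-0.23 ± 0.11, adjusted p = 0.293). Ikbke had 11.6 and 12.2 CPM in the libraries labelled STING KO and 9.41 and 9.27 CPM in irradiated wild type, without overlap (0.23 ± 0.17, adjusted p = 0.489). Tbk1, at 37.0 and 36.4 CPM in the libraries labelled STING KO against 33.3 and 29.8 CPM in irradiated wild type, also did not overlap (0.11 ± 0.09, adjusted p = 0.543). Samhd1 and Irf3 had log2 fold changes of -0.07 ± 0.12 and -0.04 ± 0.09. TMM scaling moved the median log2 fold change of 68 pathway genes by -0.117 against plain CPM ratios here, and by -0.102 in the comparison with sham wild type. The sign of both genes turned with it, since in plain CPM Samhd1 had 235 and 279 in libraries labelled STING KO and 272 and 226 in irradiated wild type, and Irf3 had 29.0 and 30.6 against 27.5 and 28.9 in the same groups.

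Set against sham wild type, the irradiated libraries labelled STING KO had higher Ikbke in macrophage-like cells, and no other member passed, where 4.33% of the 12396 genes changed and 1.86% rose. Ikbke had 11.6 and 12.2 CPM in the libraries labelled STING KO against 2.79 and 4.05 CPM in sham wild type, a log2 fold change of 1.68 ± 0.19 (edgeR, adjusted p = 0.00445). This comparison shares its sham libraries with the radiation comparison and its libraries labelled STING KO with the genotype comparison. Cgas stood at 0.34 ± 0.11 (adjusted p = 0.133) and Samhd1 at 0.33 ± 0.12 (adjusted p = 0.154). The pooled Ifnb1 rate was 3.53 times that of sham wild type, with an exact 95% interval of 0.770 to 32.8, and did not pass (adjusted p = 0.419).

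The promoters of the 3 members that rose are shown, a choice made by outcome. Letters of the IRF binding element, the class of site that IRF3 recognises, are carried by 2 of them. The windows run from 250 bases before to 50 bases after the annotated start, are read on the gene's strand from RefSeq (GRCm38.p6), and have every match to 1 of 3 motifs in capitals. The motifs were AANNGAAA (IRF element), GAAA followed by any 2 bases and GAAA (interferon-stimulated response element, which always contains the first), and GGG followed by any 3 bases and TTCC (NF-kB site), searched on both strands. Of 32851 promoters, 23.9% held the first, 3.44% the second and 5.56% the third.
Ifnb1, chr4:88522745-88523044, minus strand: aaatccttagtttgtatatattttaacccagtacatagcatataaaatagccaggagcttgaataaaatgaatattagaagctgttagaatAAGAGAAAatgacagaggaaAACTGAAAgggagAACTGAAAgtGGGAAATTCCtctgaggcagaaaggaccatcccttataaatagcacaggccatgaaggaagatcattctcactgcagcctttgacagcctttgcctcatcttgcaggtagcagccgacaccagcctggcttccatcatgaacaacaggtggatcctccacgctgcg
Ikbke, chr1:131279514-131279813, minus strand: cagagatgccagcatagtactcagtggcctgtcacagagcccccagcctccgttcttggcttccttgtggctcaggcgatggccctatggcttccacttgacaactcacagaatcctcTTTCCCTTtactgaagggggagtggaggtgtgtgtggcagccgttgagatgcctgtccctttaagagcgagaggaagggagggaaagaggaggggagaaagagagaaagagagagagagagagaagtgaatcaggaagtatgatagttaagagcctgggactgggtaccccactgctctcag
Cgas, chr9:78443188-78443487, minus strand: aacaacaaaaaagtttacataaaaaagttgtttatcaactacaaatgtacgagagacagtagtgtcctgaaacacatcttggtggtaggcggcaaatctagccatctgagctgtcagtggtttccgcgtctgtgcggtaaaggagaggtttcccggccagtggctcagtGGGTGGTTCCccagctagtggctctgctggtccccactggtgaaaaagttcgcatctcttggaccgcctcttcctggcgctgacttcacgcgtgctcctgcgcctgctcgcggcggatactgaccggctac
In Ifnb1 the IRF element occurred 3 times, with its first base 159, 139 and 126 bases before the start, and the NF-kB site followed with its first base at 116 bases. Ikbke held 1 IRF element, read on the other strand, beginning 132 bases before the start, and Cgas held 1 NF-kB site beginning 81 bases before it. None of the 3 motifs was found in the windows of Tbk1, Irf3, Samhd1 or Trex1. The IRF element is common, in 23.9% of all promoters, and the windows searched were few. Its presence in Ifnb1 and Ikbke is therefore not read as a link between the motif and a rise. A window of Tmem173 was not searched. A match is a description of the letters, and binding was not measured.

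Ifnb1 was also examined cell by cell. It was found in 49 of 31279 cells, as 126 UMIs. The libraries labelled STING KO had 23 UMIs in 17 of 11442 cells (0.149%, exact binomial 95% interval 0.0866% to 0.238%). Irradiated wild type had 101 UMIs in 30 of 9408 cells (0.319%, 0.215% to 0.455%). Sham wild type had 2 UMIs in 2 of 10429 cells (0.0192%, 0.00232% to 0.0693%). By library the number of positive cells was 9 and 8 in the libraries labelled STING KO, 8 and 22 in irradiated wild type, and 1 and 1 in sham wild type. The intervals pool the cells of 2 libraries and leave out spread between libraries. The share of positive cells was higher in each of the 4 irradiated libraries than in either sham library. The sham libraries were also shallower, with medians of 4409 and 4588 UMIs per kept cell against 5510.5 to 6792. The part of depth in these shares was not tested.

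Most positive cells, 32 of 49, held a single UMI. The 7 cells with 5 UMIs or more were all from irradiated wild type, 2 from replicate 1 and 5 from replicate 2. The highest cell, from irradiated wild-type replicate 2, had 22 UMIs, and the next had 13 and 9. These 3 cells gave 34.9% of all Ifnb1 UMIs, and all 3 were macrophage-like. In libraries labelled STING KO no cell had more than 3 UMIs. Positive cells were deep, with a median of 9535 UMIs against 5412 UMIs over all kept cells.

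**Figure D3:**
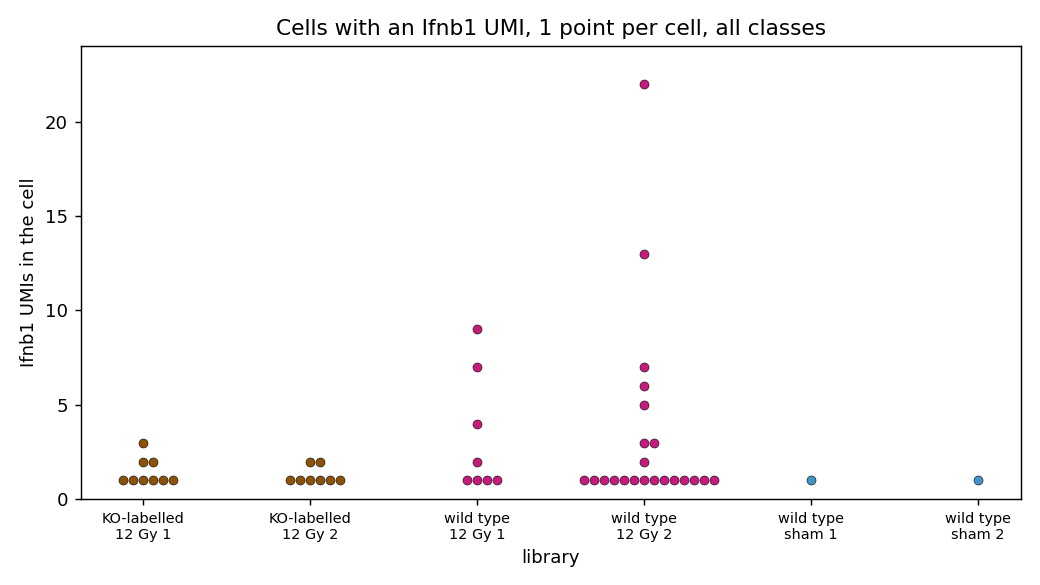
Ifnb1 UMIs in each cell that had any (y axis, linear), by library (x axis: libraries labelled STING KO, irradiated wild type, sham wild type), 1 point per cell over all classes. Cells with 5 or more UMIs, up to 22, are seen in the 2 irradiated wild-type libraries, and each sham library has 1 cell with 1 UMI.

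Most positive cells lay in 2 clusters. The cluster led by Tnf, Ccl4 and Tnfsf9 held 18 of them with 46 UMIs, which was 5 UMIs in 4 of 917 cells labelled STING KO, 40 UMIs in 13 of 1011 irradiated wild-type cells and 1 UMI in 1 of 944 sham cells. An unnamed cluster led by Mmp12 and Retnla held 11 positive cells with 19 UMIs, as 5 UMIs in 4 of 346 cells labelled STING KO, 14 UMIs in 7 of 271 irradiated wild-type cells and 0 UMIs in 113 sham cells. The interferon-gene cluster held 4 positive cells, of which 1 had 22 of its 30 UMIs, and the Cd209f-led cluster held 4 with 1 UMI each. A single fibroblast-like cell of irradiated wild-type replicate 1 had 7 UMIs, together with 572 UMIs of Cxcl10 and 129 UMIs of Ifit1. No Ifnb1 UMI was found in 3782 neutrophil-like, 3363 B cell-like, 1955 monocyte-like, 1103 NK cell-like, 1015 T cell-like or 682 dendritic cell-like cells, whose exact upper 95% limits run from 0.0975% of neutrophil-like to 0.539% of dendritic cell-like cells with a UMI.

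Interferon alpha genes were rarer still. The 14 Ifna genes had 18 UMIs in 6 cells, 15 of them in irradiated wild-type replicate 2, 2 in irradiated wild-type replicate 1, 1 in sham replicate 1 and 0 in both libraries labelled STING KO. The macrophage-like cell with the most Ifnb1 UMIs held 13 of these 18 UMIs.

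Within the macrophage-like class, Ikbke was higher in irradiated than in sham wild type in more than 1 cluster. In the cluster led by Cd209f and Ccl8 it had 12.1 and 11.2 CPM in irradiated wild type, against 2.498 and 3.47 CPM in sham wild type (1.91 ± 0.27, edgeR, adjusted p = 0.00553, where 1.44% of genes changed). The libraries labelled STING KO had 13.6 and 14.3 CPM there. In the cluster led by Lilra5 and Cx3cr1 it had 5.11 and 6.41 CPM in irradiated wild type, against 1.09 and 1.49 CPM in sham wild type (2.10 ± 0.59, adjusted p = 0.0473, where 5.81% of genes changed). That second call rests on 11 and 11 UMIs against 2 and 3 UMIs, and it was lost when any 1 of the 6 libraries was left out and by DESeq2. In that cluster Ikbke entered the test through the irradiated libraries, where it is higher. The direction was thus favoured by the filter on low counts, and the fitted fold is a description. In the Tnf-led cluster the values were 6.16 and 4.40 CPM in irradiated wild type and 2.99 and 2.39 CPM in sham wild type (0.92 ± 0.48, adjusted p = 0.340).

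The small cluster led by Alox15 and Saa3 had Ikbke at 19.2 and 31.5 CPM in libraries labelled STING KO, 22.7 and 30.6 CPM in irradiated wild type, and 44.5 and 25.3 CPM in sham wild type. These sham values rest on 4 and 15 UMIs, and the cluster was too small to be tested. Ifnb1 was called in the Tnf-led cluster, with 16 and 24 UMIs in irradiated wild type against 0 and 1 UMI in sham wild type (4.59 ± 0.81, adjusted p = 0.00657, where 2.88% of genes changed), a call lost without sham replicate 1 or irradiated wild-type replicate 2. There too the gene entered the test through the group where it is high, so the fitted fold is a description. Samhd1 rose there too, to 194 and 177 CPM in irradiated wild type against 137 and 126 CPM in sham wild type (0.48 ± 0.11, adjusted p = 0.0372), and this call was lost when any 1 of those 4 libraries was left out.

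Cgas passed in none of the 4 clusters tested. The interferon-gene cluster had the highest levels of the 5, with 47.3 and 57.7 CPM in libraries labelled STING KO, 31.9 and 47.1 CPM in irradiated wild type, and 35.4 and 40.2 CPM in sham wild type (0.07 ± 0.41, edgeR, adjusted p = 0.980, where 0.26% of genes changed). Its sham values rest on 7 and 7 UMIs, with exact intervals of 14.2 to 72.9 and 16.1 to 82.7 CPM for counting error, so a change there could be missed. The Cd209f-led, Lilra5-led and Tnf-led clusters overlapped in their ranges, at 11.1 to 14.5 CPM, 11.4 to 22.8 CPM and 18.3 to 27.4 CPM. The Cd209f-led cluster had 14.4 and 14.5 CPM, 12.9 and 12.2 CPM, and 11.1 and 13.2 CPM in the same order of groups (0.01 ± 0.20). The share of macrophage-like cells in the interferon-gene cluster was 3.17% and 6.48% in libraries labelled STING KO, 15% and 10.1% in irradiated wild type, and 1.60% and 1.41% in sham wild type, and that of the Cd209f-led cluster was 37.1% and 30.9%, 22% and 30.3%, and 45.6% and 46.9%. Samhd1 was likewise high in the interferon-gene cluster, at 413 CPM or more in all 6 libraries, against 305 CPM or less in the Cd209f-led, Lilra5-led and Tnf-led clusters.

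**Figure D4:**
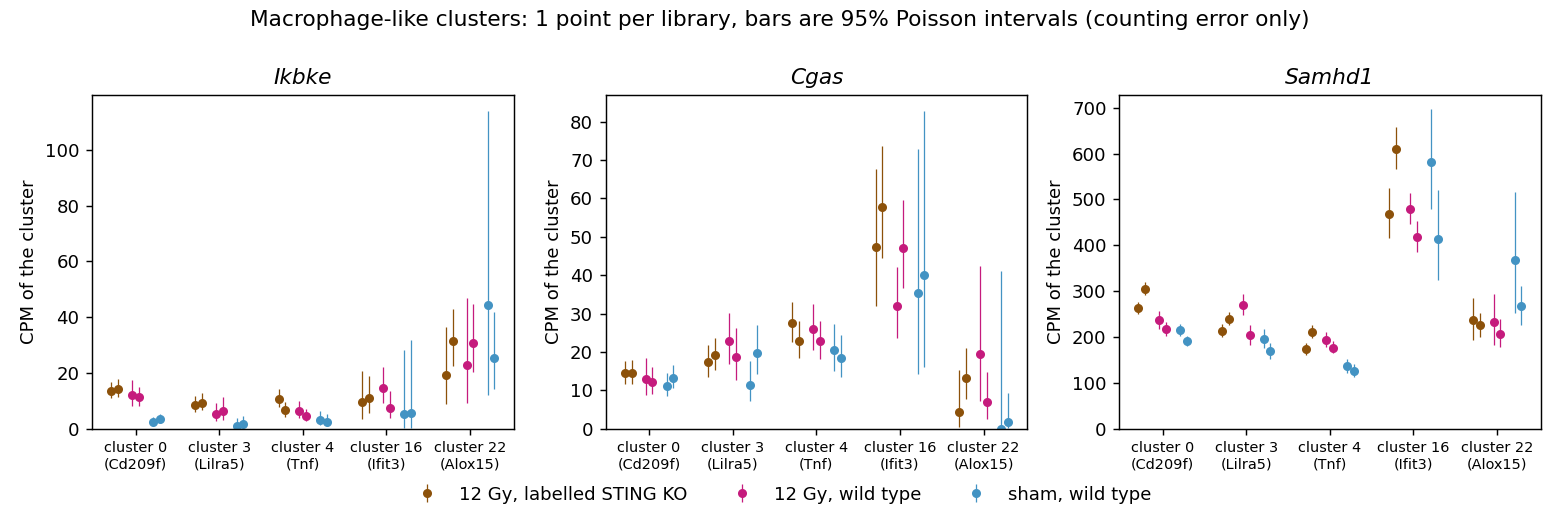
Level of Ikbke, Cgas and Samhd1 (y axes, CPM of the cluster, linear) in 5 macrophage-like clusters (x axis, with a leading gene), 1 point per library and with exact Poisson 95% intervals for counting error only. Ikbke is 11.2 CPM or more in both irradiated groups and 3.47 CPM or less in sham wild type in the Cd209f-led cluster, and Cgas and Samhd1 are highest in the interferon-gene cluster (Ifit3).

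Outside the macrophage-like class few members passed the test. Over all kept cells no member passed for the radiation comparison, where 0.0127% of 15748 genes changed, or for the genotype comparison, where 0.0191% changed, although 3587 and 2322 genes had an unadjusted p under 0.05. Cgas had 19.4 and 16.4 CPM in irradiated wild type against 12.0 and 10.8 CPM in sham wild type (0.67 ± 0.13, edgeR, adjusted p = 0.0780), and it was called by DESeq2 (adjusted p = 0.00572). In the 9 other classes 42 pairs of class and member could be tested. By edgeR 0 of the 42 passed for radiation, with 6 at an unadjusted p under 0.05, where 0.555% of 75912 pairs of class and gene changed. For the genotype 0 of 42 passed, with 1 at an unadjusted p under 0.05, where 0.26% of the pairs changed. Against sham wild type 1 of 42 passed in the libraries labelled STING KO, where 1.18% of the pairs changed.

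That pair was Samhd1 in endothelial-like cells. It had 63.5 and 71.8 CPM in libraries labelled STING KO, 72.7 and 72.8 CPM in irradiated wild type, and 104 and 105 CPM in sham wild type. The log2 fold change against sham wild type was -0.69 ± 0.12 in the libraries labelled STING KO (edgeR, adjusted p = 0.0183, where 6.32% of genes changed) and -0.51 ± 0.12 in irradiated wild type (adjusted p = 0.0601, where 3.31% changed). The first call was lost when any 1 of its 4 libraries was left out, at adjusted p between 0.0672 and 0.181. Tested directly, the radiation effect on Samhd1 was higher in macrophage-like than in endothelial-like cells by 0.93 ± 0.15 on the log2 scale (adjusted p = 0.0143, where 1.58% of genes differed). This was the 1 member called when macrophage-like cells were set against endothelial-like, monocyte-like, B cell-like and neutrophil-like cells, where 1.04% of all pairs of class and gene differed, and it was lost without sham replicate 1 (adjusted p = 0.0624) or sham replicate 2 (0.151) and in a fit of the 2 groups alone (0.0571). In the endothelial-like class Ptprc, the CD45 gene, was at 21.96 and 30.5 CPM in libraries labelled STING KO, 18.8 and 34.2 CPM in irradiated wild type, and 33.0 and 72.7 CPM in sham wild type, and its part in the result was not tested.

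In cycling cells Cgas had 41.4 and 41.4 CPM in libraries labelled STING KO, 45.0 and 40.8 CPM in irradiated wild type, and 27.5 and 19.9 CPM in sham wild type. Both irradiated groups lay above sham wild type, and the radiation effect did not pass (0.97 ± 0.19, edgeR, adjusted p = 0.0712). In fibroblast-like cells Tmem173 had 15 and 35.9 CPM in irradiated wild type and 9.26 and 5.60 CPM in sham wild type, from 4, 22, 6 and 4 UMIs, and did not pass (1.90 ± 0.56, adjusted p = 0.380). Ikbke in T cell-like cells had 44.3 and 36.4 CPM in libraries labelled STING KO, 26.9 and 25.3 CPM in irradiated wild type, and 16.1 and 27.9 CPM in sham wild type, with no call.

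**Figure D5:**
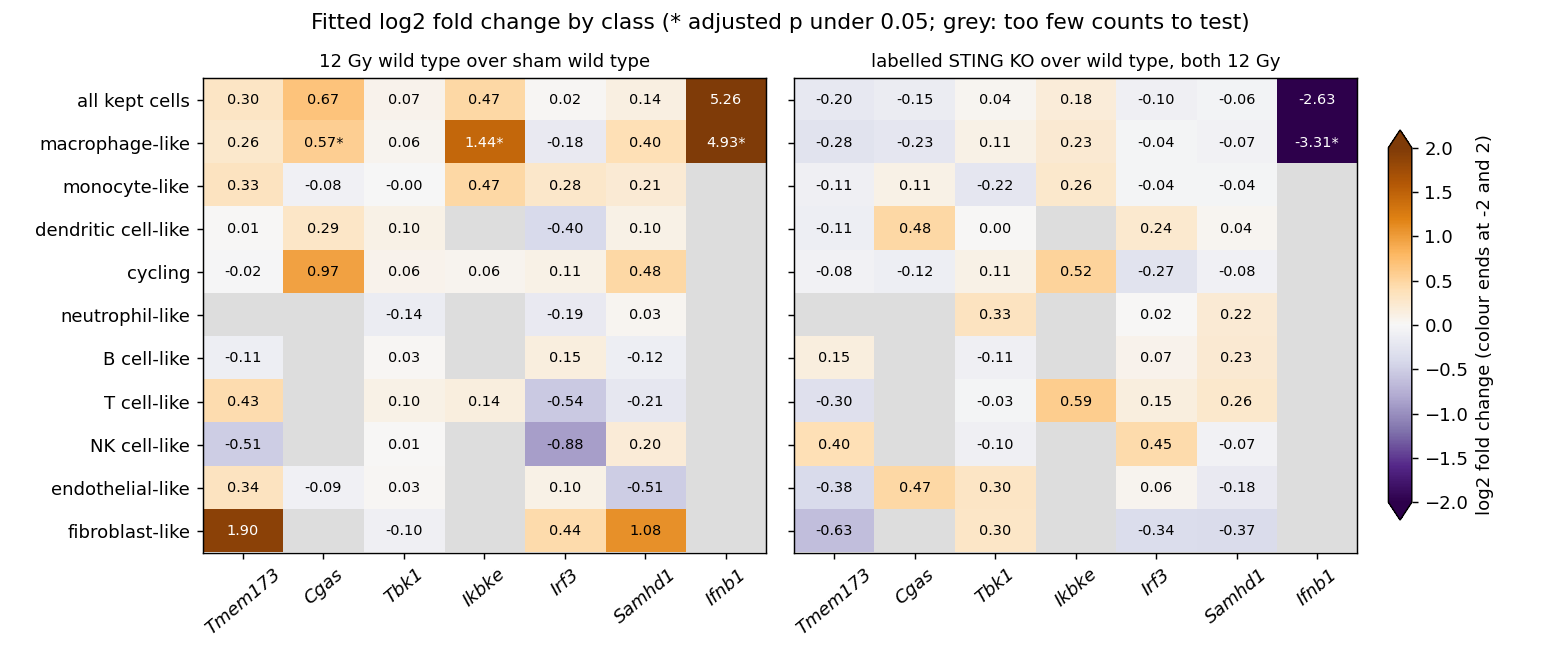
Fitted log2 fold changes of 7 genes (columns) in all kept cells and 10 classes (rows), for irradiated over sham wild type (left) and labelled STING KO over wild type, both irradiated (right). Stars mark adjusted p under 0.05, which 3 genes reach on the left and 1 on the right, all in macrophage-like cells, and grey cells had too few counts to test. Ifnb1 is starred on both sides. It entered the test through the irradiated wild-type libraries, where it is high, so its stars are a description.

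The other genes of the pathway were read in macrophage-like cells from a list of 84 grouped by role, of which 83 were tested. After irradiation 20 rose, 0 fell and 63 did not pass in wild type, with a median log2 fold change of 0.10, against a share of 3.65% of all 12396 genes that rose and a median near 0. The list was chosen with earlier results of these data known, so its share that rose is a description. All 9 interferon target genes tested rose. Irf7, the transcription factor that amplifies the interferon response, averaged 230 ± 40.1 CPM in irradiated wild type and 43.3 ± 1.76 CPM in sham wild type (2.42 ± 0.20, edgeR, adjusted p = 0.00114). Cxcl10, a chemokine that attracts T cells, averaged 435 ± 82.7 CPM in irradiated wild type and 121 ± 21.8 CPM in sham wild type (1.86 ± 0.19, adjusted p = 0.00331). The other target genes rose by 2.00 (Ifit1 and Rsad2) to 4.12 (Ifi44, at 14.2 ± 2.04 CPM in irradiated wild type) on the log2 scale. Group averages of pathway genes in CPM, here and below, are over 2 libraries, and their ± is not the SE of the fit.

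Among 15 DNA sensors and cofactors 2 rose, Zbp1, a sensor of Z-form nucleic acid (1.47 ± 0.24), and Ifi204, a mouse Pyhin-family DNA sensor (0.52 ± 0.11). Among 21 genes of STING traffic and regulation Usp18, a negative regulator of the interferon receptor, rose (1.51 ± 0.18). Of 5 genes for the RNA sensing arm that feeds the same kinases 3 rose, Ddx58, Ifih1 and Dhx58, by 0.89 ± 0.11, 0.89 ± 0.12 and 1.10 ± 0.19. Banf1, which shields DNA, rose in the group of 7 nucleases and shields (0.43 ± 0.10), Sqstm1, an autophagy adaptor, with Irf7 among 14 kinase adaptors and transcription factors (0.46 ± 0.10), and Stat2, a transcription factor activated by the interferon receptor, in the group of the receptor and its signal (0.68 ± 0.16). None of 5 genes for cGAMP breakdown and transport passed.

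With the STING KO label, 11 of the 83 fell and 0 rose in irradiated macrophage-like cells, against 1.19% of all genes that fell, and the median log2 fold change of the list was -0.14. A total of 7 of the 9 target genes were among them, and Ccl5 and Isg15 did not pass. Irf7 averaged 66.5 ± 19.7 CPM in libraries labelled STING KO and 230 ± 40.1 CPM in irradiated wild type (-1.90 ± 0.19, edgeR, adjusted p = 0.00661), and Cxcl10 averaged 152 ± 38.7 CPM and 435 ± 82.7 CPM in these groups (-1.64 ± 0.19, adjusted p = 0.0139). The others were Usp18 (-1.30 ± 0.17), Sqstm1 (-0.78 ± 0.10) and Ifih1 (-0.63 ± 0.12). Here too the list was chosen with earlier results of these data known, so its share that fell is a description. Against sham wild type, 2 of the 83 rose in the libraries labelled STING KO and 81 did not pass, where 1.86% of all 12396 genes rose. The 2 were Isg15, a ubiquitin-like target of interferon (1.53 ± 0.21, edgeR, adjusted p = 0.00834), and Rad50, a DNA break repair protein (0.39 ± 0.09, adjusted p = 0.0467). So small a count is not read as a result about the list.

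Finally, the genes whose class pattern was most like that of each member were sought by Pearson's r of log2(CPM + 1) means over the 10 classes, among 8582 genes. For Tmem173 they were Hspa8, Trappc6a and Ptcd2 (r = 0.9748, 0.971 and 0.970), for Cgas Trappc1, Ap2s1 and Mrps15 (0.949, 0.932 and 0.928), and for Irf3 Ppfia1, Dido1 and Zzz3 (0.986, 0.981 and 0.980). Samhd1 was followed by Kdm7a, Ptpn1 and Pts (0.939, 0.936 and 0.932), and Tbk1, whose levels varied least, by Tmem94, Ttc32 and Naa60 (0.875, 0.868 and 0.847). The 10 points share libraries and differ in depth, so these values describe likeness only. Ikbke was below the 10 CPM set for this comparison.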

How the data were processed

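Single-cell 3' libraries of CD45+ heart cells were deposited as unnormalised UMI counts for each gene in each cell, which the authors made with Cell Ranger 5.0.0 on mm10, per the submitters' processing notes. These also name Seurat 3, with no role given. The 8 genes and all lists were chosen with earlier results of these data known.

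Cells with at least 200 genes and at most 10% mitochondrial UMIs were kept, 31279 of 45904 barcodes. Scrublet scores were computed, and because its own threshold marked at most a few cells per library, the highest-scoring 0.8% per 1000 cells were removed as doublets. Clustering (scanpy 1.11.5) used 2000 variable genes without the 8 genes, 30 components, 15 neighbours and Leiden resolution 1. It gave 32 clusters, named as "-like" from marker lists with at least 3 detected markers. The ratio of 0.5 above which a cluster counted as mixed was set after the clusters were seen. Names are rebuilt here and may differ from the study's.

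Counts were summed per library and class with at least 20 cells in each library, and tested with edgeR 4.0.16 (R 4.3.3; filterByExpr, TMM, quasi-likelihood) over all 6 libraries. Named pathway genes were up to 12 called genes per comparison by size, and the others named were chosen after their values were seen. DESeq2 1.42.0 and other settings were alternatives. On simulated data for the radiation comparison in macrophage-like cells (12238 genes), 90% of changes of size 1 and 100% of size 2 on the log2 scale were recovered, with 12 false calls. The changed genes were drawn only from those with a mean above 10 CPM, and every gene had the same set spread. These shares therefore do not apply to Ikbke and Ifnb1, whose means in this class were 8.22 and 1.18 CPM. The set spread was not estimated from these libraries, and changes smaller than 1 were not simulated. For the other members the shares are therefore no measure of what could be detected. Libraries held 31650962 to 59675213 UMIs over all barcodes, and 24516116 to 48253522 in kept cells. Intervals are at 95% and cover counting error only. Gene positions come from GENCODE vM21 (GRCm38) and promoters from RefSeq (GRCm38.p6). Mx1, a listed interferon target, was not analysed here. A further pathway gene is counted in the list but not reported here by name.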

Additional observations from a re-analysis of the deposited data

Results flagged for a closer look

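The radiation effect on Samhd1 differed between cell classes by a direct test, being higher in macrophage-like than in endothelial-like cells by 0.93 on the log2 scale (edgeR interaction, adjusted p = 0.0143). It was 0.40 in macrophage-like and -0.51 in endothelial-like cells, neither past the threshold alone, and the libraries of irradiated and sham wild type did not overlap in either class.

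Among pairs of class and gene with enough counts for the fit, 2 more had libraries of 1 class that moved opposite to those of macrophage-like cells, and these differences were not tested. The share of all genes that did so is not given here, so this count is not read as a result about the members. Pairs below the filter on low counts were not considered, and some of them also moved opposite, as Ikbke in NK cell-like cells, with 3 and 2 UMIs in irradiated wild type and 7 and 6 UMIs in sham wild type. Tmem173 in NK cell-like cells had 26.3 and 36.7 CPM in irradiated wild type and 40.6 and 49.6 CPM in sham wild type, a log2 fold change of -0.51, where macrophage-like cells had 0.26. The NK cell-like values rest on 12 and 14 UMIs in irradiated wild type and 18 and 32 UMIs in sham wild type. Irf3 in fibroblast-like cells had 48.8 and 45.6 CPM in irradiated wild type and 34.0 and 33.6 CPM in sham wild type, a log2 fold change of 0.44, where macrophage-like cells had -0.18. The fibroblast-like values rest on 13 and 28 UMIs in irradiated wild type and 22 and 24 UMIs in sham wild type.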

How the results depend on the processing

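Of the members called in macrophage-like cells, the radiation comparison had 3, which became 0 at 5% mitochondrial UMIs (also 0 with the first names kept), 1 at Leiden resolution 0.5, and 1 to 3 without 1 library. Over all genes these settings called 50 and 410 against 803. The genotype comparison had 1, which became 0 by DESeq2, at 5% (both ways), at resolution 0.5 and without the top Ifnb1 cell of each library, and 0 to 1 without 1 library. DESeq2 gave Ifnb1 no adjusted p there. Over all genes the genotype comparison had 230 calls in the main fit and 436 by DESeq2. It had 7 at 5% (9 with the first names kept), 84 at resolution 0.5 and 216 without those top cells. The comparison of libraries labelled STING KO with sham wild type had 1, which became 2 with no filter on low counts and 0 at 5% (both ways). Over all genes it had 537 calls in the main fit, 1593 with no filter and 50 at 5%. Over all kept cells the radiation count of 0 became 1 by DESeq2 and 2 with no filter, and the genotype count of 0 became 1 with no filter. In the other classes the radiation count of 0 became 3 with no filter. The 1 member whose radiation effect differed between classes became 0 with 2 groups alone and at 5%, and 0 to 3 without 1 library. In macrophage-like clusters 4 calls became 1 by DESeq2, 2 with the replicate block, 0 at 5%, and 1 to 3 without 1 library. Ifnb1-positive cells in libraries labelled STING KO were 0.149% and became 0.0541% at 5%. The cause of these shifts was not tested.

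Signs turned only among values that did not pass. For radiation, Tbk1 ran from -0.01087 (without irradiated wild-type replicate 1) to 0.14 when 1 library was left out. For genotype, Cgas was 0.01646 at 5%. Irf3 ran from -0.07847 to 0.004673 and Samhd1 from -0.19 to 0.06201 when 1 library was left out, with Samhd1 at 0.05307 without the interferon-gene cluster. Against sham wild type, Tmem173 in libraries labelled STING KO ran from -0.10 to 0.07738 when 1 library was left out, and was 0.009694 at resolution 0.5 and 0.01384 without the smallest macrophage-like cluster.

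The labels do not say whether replicate numbers pair the libraries. Deviations of same-numbered libraries correlated at -0.035 between the irradiated groups, 0.152 between libraries labelled STING KO and sham, and 0.209 between irradiated and sham wild type. With the replicate block the macrophage-like counts were 3 and 1, the same as without it. Over all genes the block gave 875 and 287 calls, against 803 and 230 without it. In macrophage-like cells, replicate 2 exceeded replicate 1 in every group for the B cell, T cell, endothelial, monocyte and neutrophil marker sums. The cardiomyocyte and fibroblast sums did not share this order. Whether same-numbered libraries were handled together was not tested. With 2 libraries per group and few Ifnb1 and Ikbke UMIs, counts limit what could be detected.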
